A study of Mus musculus with 8 samples.

Results

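The genes described here belong to the machinery by which cells display peptides on molecules of the major histocompatibility complex (MHC). They were chosen by name: every gene whose symbol on the array begins with H2-, the mouse MHC prefix, together with B2m, Tap1, Tap2, Tapbp, Tapbpl, Cd74, Ciita, Nlrc5, Psmb8, Psmb9 and Psmb10, wherever the annotation of a transcript cluster (the array's unit of measurement) named that gene alone. This gave 46 genes of the 30707 that the table names alone, each on 1 cluster. Of these, 32 are class I genes (2 classical and 22 other heavy chain genes or pseudogenes and 8 accessory genes), 13 are class II genes (5 chains and 8 accessory genes or pseudogenes), and H2-Ke6, a steroid dehydrogenase gene that lies in the H2 region, is neither. The clusters of Cd74 and Nlrc5 also list a microRNA, so Cd74 and Nlrc5 fell outside the rule and their values are given apart, as are those of 9 further clusters on which an H2 gene shares its row with another name.

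MHC class I molecules sit on nearly all nucleated cells and show peptides from the cytosol to CD8 T cells. Proteasomes cut the peptides, the TAP transporter carries them into the endoplasmic reticulum, and tapasin and related chaperones load them onto a heavy chain paired with beta-2-microglobulin. MHC class II molecules show peptides from the endosome to CD4 T cells and are known above all from dendritic cells, macrophages and B cells, although epithelium and stromal cells can make them under interferon-gamma. NLRC5 and CIITA are the transactivators of the class I and the class II genes.

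RNA was measured in 8 samples of colon fibroblasts from wild-type C57BL/6J mice on Affymetrix mouse transcriptome arrays, 1 array a sample. The fibroblasts had been sorted as lacking Epcam, CD45 and CD31 and carrying gp38, and were split by surface CD90 (coded by Thy1) into 4 CD90-negative samples, numbered 13, 15, 17 and 19 in their titles, and 4 CD90-positive samples, numbered 14, 16, 18 and 20. Both populations came from 4 mice, which no label ties to single samples, and no age or treatment is given. Values are log2 expression as the authors deposited it, means carry the SD over 4 samples, and a difference in log2 units is the CD90-positive mean less the CD90-negative one, with limma's adjusted p over all 17222 genes tested. In sorted bulk RNA, fewer cells of a kind and less RNA per cell cannot be told apart. The comparison asks how CD90-positive colon fibroblasts differ from CD90-negative ones.

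The gate and the arrays set limits on what follows. Thy1 lay between 5.46 and 5.57 in CD90-negative and between 7.03 and 8.11 in CD90-positive samples, and Pdpn, which codes for gp38, between 13.00 and 13.54 in all 8. Of the genes for the markers that the sort selected against, Ptprc (CD45) lay between 4.49 and 5.02, highest in sample 20, and Pecam1 (CD31) between 5.84 and 7.01. Epcam lay between 7.21 and 9.40, above the negative control rows in all 8 samples and highest in samples 13 and 20. The medians of the array's negative control rows averaged 6.81 over the CD90-negative samples and 6.64 over the CD90-positive ones, so lower means are uncertain in size. Samples 13 and 14 stood apart from the other 6: Xist, the RNA of the inactive X chromosome, was at 16.16 and 16.27 there and between 5.89 and 9.32 elsewhere. Uty, a gene of the Y chromosome, was at 5.49 and 5.56 there and between 9.65 and 10.06 elsewhere. No label gives the sex of the mice. By Xist and Uty, samples 13 and 14 read as female and the other 6 as male. Whether sex accounts for the differences of samples 13 and 14 in other genes was not tested. Results that rest on samples 13 and 14 are given with and without them. A cluster had to reach 5.36 in at least 4 samples to be tested, which 24 of the 46 members did and 22 did not.

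Of the 24 members tested, 2 were higher and 6 were lower in CD90-positive fibroblasts (limma adjusted p under 0.05), and 16 were not called. These 8 are 33.3% of the members tested, beside 29.7% of all genes tested (14% higher and 15.7% lower), so as a group the members were called about as often as other genes. The members that rose were B2m and the heavy chain gene H2-Q4. Those that fell were the heavy chain gene H2-M3, the loading genes Tapbp, Tapbpl and Tap2, the proteasome gene Psmb10, and H2-Ke6. The median difference was 0.19 over the 11 heavy chain genes tested and -0.21 over the 8 class I accessory genes, beside -0.01 over all genes tested. Whatever its sign, the median size of a single gene's difference over all genes tested was 0.18. As signs cancel in a median over a group, that size does not tell how unusual the 2 group medians are, which was not tested. Of these heavy chain genes 18.2% were called, and of the accessory genes 62.5%. The populations did not overlap in 9 of the 24 members, beside 32.3% of all genes tested.

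**Figure D1:**
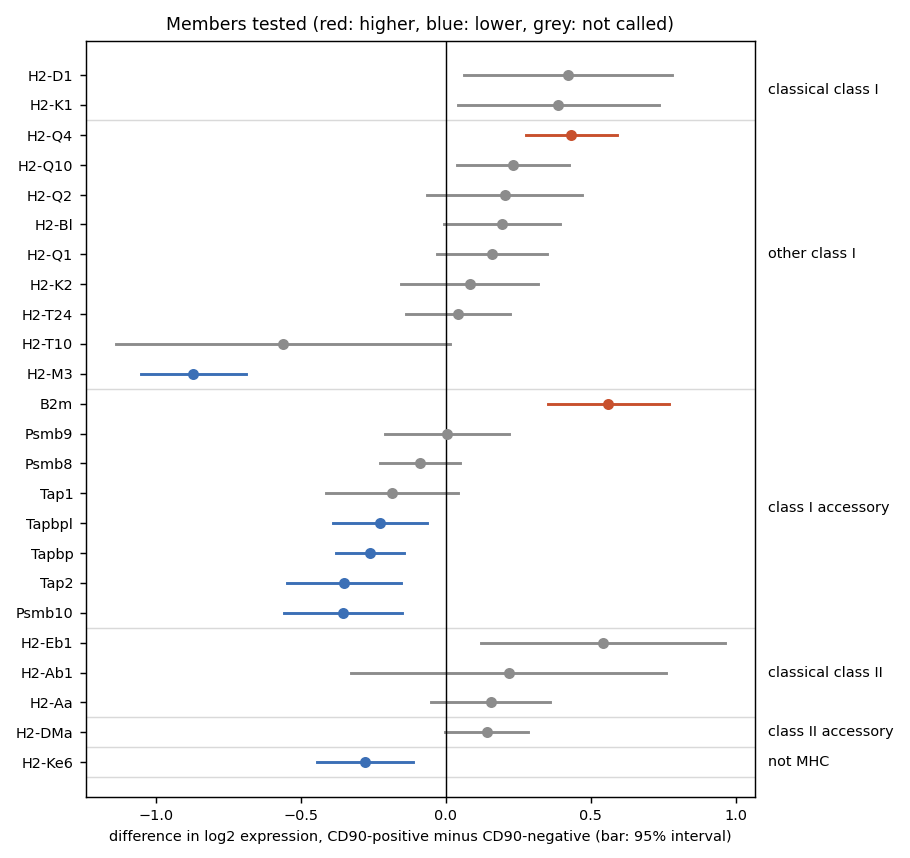
Differences in log2 expression between CD90-positive and CD90-negative fibroblasts for the 24 members tested, by class, with bars for unadjusted 95% intervals. B2m and H2-Q4 (red) were called higher, 6 genes (blue) lower, and the remaining 16 (grey) were not called after adjustment, although some of their intervals do not reach 0.

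The stretch before the start of 4 of these genes is shown because B2m and H2-Q4 were called higher while H2-M3 and Tapbp were called lower. Each is the 250 bases upstream of the start in RefSeq's annotation of GRCm38.p6, read on the plus strand: chr2:122147437-122147686 for B2m, chr17:35379367-35379616 for H2-Q4, chr17:37269984-37270233 for H2-M3 and chr17:33919228-33919477 for Tapbp. Capitals mark matches, on either strand, to motifs known from MHC promoters: the interferon-stimulated response element (GAAA, any 2 bases, GAAA) and its shorter form GAANNGAAA, the NF-kB motif (GGG, any 2 bases, TT, any base, CC), the Y box ATTGG and the core TGACG of the cyclic AMP response element.
B2m: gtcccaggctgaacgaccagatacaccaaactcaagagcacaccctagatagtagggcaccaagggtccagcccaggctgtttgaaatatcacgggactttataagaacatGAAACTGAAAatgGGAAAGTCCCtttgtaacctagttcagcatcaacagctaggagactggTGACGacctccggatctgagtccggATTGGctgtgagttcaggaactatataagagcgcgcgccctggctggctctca
H2-Q4: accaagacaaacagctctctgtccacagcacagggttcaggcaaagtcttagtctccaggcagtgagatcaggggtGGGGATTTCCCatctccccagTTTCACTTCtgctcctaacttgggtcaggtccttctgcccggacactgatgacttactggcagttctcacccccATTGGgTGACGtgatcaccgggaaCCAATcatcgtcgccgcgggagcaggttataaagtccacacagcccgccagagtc
H2-M3: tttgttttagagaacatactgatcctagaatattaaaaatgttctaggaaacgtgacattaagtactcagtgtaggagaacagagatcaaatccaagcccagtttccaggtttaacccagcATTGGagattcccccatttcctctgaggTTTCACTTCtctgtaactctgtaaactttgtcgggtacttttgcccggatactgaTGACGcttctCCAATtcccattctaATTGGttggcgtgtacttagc
Tapbp: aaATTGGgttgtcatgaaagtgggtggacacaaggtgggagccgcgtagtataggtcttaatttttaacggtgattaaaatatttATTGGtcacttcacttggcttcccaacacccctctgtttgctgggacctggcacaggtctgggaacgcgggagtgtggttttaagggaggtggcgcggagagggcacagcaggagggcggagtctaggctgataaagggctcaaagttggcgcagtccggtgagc
B2m held the long interferon element at -139 and an NF-kB match at -126, counted from the last base before the start as -1. H2-Q4 held the shorter interferon element at -153 and overlapping NF-kB matches at -174 and -173. H2-M3 held the shorter element at -101 and no NF-kB match. Tapbp held Y boxes at -248 and -165 and none of the other motifs in this window. Among the 16 tested members with an entry, the shorter element was in H2-K1, H2-D1, H2-Q4, H2-Q10 and H2-M3, and the NF-kB motif in B2m, H2-K1, H2-D1, H2-Q4 and H2-Aa. Of all 32851 windows of this length, 2.98% held the long element, 6.31% the shorter one, 4.11% the NF-kB motif, 33.8% the Y box and 17.8% the core TGACG. A match is a description of the letters only.

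B2m codes for beta-2-microglobulin, the light chain that every class I heavy chain needs to reach the surface. It was at 15.14, 15.06, 15.43 and 15.26 in CD90-negative samples 13, 15, 17 and 19 and at 15.66, 15.83, 15.82 and 15.83 in CD90-positive samples 14, 16, 18 and 20. Every CD90-positive sample lay above every CD90-negative one. The difference was 0.56 (95% interval 0.35 to 0.77, limma adjusted p = 0.00187), from 15.22 ± 0.16 to 15.78 ± 0.084.

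H2-D1 and H2-K1 code for the classical heavy chains of this strain. H2-D1 was at 13.20, 13.41, 13.67 and 13.59 in CD90-negative and at 13.45, 14.02, 14.03 and 14.04 in CD90-positive samples. Sample 14 lay among the CD90-negative values and the other 3 CD90-positive samples above them all. The difference of 0.42 (95% interval 0.06 to 0.78) was not called (limma adjusted p = 0.0774). Without sample 14 it was 0.56 and without samples 13 and 14 it was 0.47, and both were called (limma adjusted p = 0.00848 and 0.00508), as it was with array weights and after another quantile normalization (limma adjusted p = 0.014 and 0.0455).
H2-K1 was at 11.34, 10.55, 11.09 and 10.96 in CD90-negative and at 11.50, 11.29, 11.38 and 11.31 in CD90-positive samples. Here sample 13 reached into the CD90-positive range. The difference of 0.39 was not called (limma adjusted p = 0.0891). Without sample 13 it was 0.51 and without samples 13 and 14 it was 0.46, and both were called (limma adjusted p = 0.0216 and 0.0411), while without sample 15 it was 0.24 and not called (limma adjusted p = 0.134). With neighbouring title numbers taken as pairs, which no label states, H2-D1 and H2-K1 were higher in the CD90-positive sample of all 4 pairs and were called (limma adjusted p = 0.00964 and 0.0369).

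The Q genes code for class I molecules with few alleles and more limited roles, and their sequences are close enough that probes may not keep them apart. H2-Q4 was at 9.51, 9.35, 9.49 and 9.32 in CD90-negative and at 9.85, 9.84, 9.78 and 9.93 in CD90-positive samples. The populations did not overlap, and the difference was 0.43 (95% interval 0.28 to 0.59, limma adjusted p = 0.00161). H2-Q10, a secreted class I molecule best known from liver, was at 6.77 ± 0.16 and 7.01 ± 0.026 without overlap and was not called (difference 0.23, limma adjusted p = 0.0728). It was called without sample 13 (0.29, limma adjusted p = 0.0286) and without samples 13 and 14 (0.30, limma adjusted p = 0.0369). The CD90-negative mean of H2-Q10 lay below the negative control rows. H2-Q2 and H2-Q1 differed by 0.20 and 0.16 and were not called (limma adjusted p = 0.234 and 0.187), with both H2-Q1 means below the negative control rows. H2-Q3, a pseudogene, lay under the filter with values from 5.03 to 5.53.

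Clusters that carry the names of several Q genes are no members, since their signal cannot be assigned to 1 gene. In a fit that also admitted such clusters, the one for H2-Q6 and H2-Q8 was at 8.67, 8.49, 8.74 and 8.48 in CD90-negative and at 8.81, 9.06, 9.05 and 9.11 in CD90-positive samples. Its populations did not overlap, and it was called higher by 0.41 (limma adjusted p = 0.0099). The clusters for H2-Q7 with H2-Q9 and for H2-Q5 with H2-Q7 were called higher by 0.37 and 0.36, with overlap (limma adjusted p = 0.0326 and 0.0476). The first lost its call without any 1 of samples 13, 15, 16, 18, 19 or 20 (0.32 to 0.38, limma adjusted p up to 0.0849), and the second without any 1 of samples 14, 15, 17, 18, 19 or 20 (0.26 to 0.40, limma adjusted p up to 0.108). Without samples 13 and 14 together both kept their calls (0.40 and 0.36, limma adjusted p = 0.0358 and 0.0474). The cluster for Gm10499 with H2-Q5, with both means below the negative control rows, differed by 0.19 and was not called (limma adjusted p = 0.126). That for H2-T9 with Gm7030, dimmer than the negative control rows, was called by 0.23 (limma adjusted p = 0.0499) and lost the call without any 1 sample other than 14 (limma adjusted p up to 0.119). It kept the call without samples 13 and 14 together (0.27, limma adjusted p = 0.0154).

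H2-M3 codes for a class I molecule that binds peptides beginning with formyl-methionine, as bacteria and mitochondria make them. It was at 8.72, 8.68, 8.94 and 8.87 in CD90-negative and at 7.83, 8.0, 8.0 and 7.90 in CD90-positive samples. Every CD90-positive sample lay below every CD90-negative one, and H2-M3 fell by 0.87 (95% interval -1.05 to -0.69, limma adjusted p = 6.83e-05). This was the widest difference among the 24 members tested. The other M genes, many of them known from the vomeronasal organ, lay under the filter: H2-M1, H2-M2, H2-M5, H2-M9, H2-M11, H2-M6-ps and the 6 H2-M10 genes.

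H2-T10 and H2-T22 code for class I molecules that bind no peptide and are known as ligands of gamma-delta T cell receptors. H2-T10 was at 9.15, 8.77, 8.75 and 8.57 in CD90-negative samples 13, 15, 17 and 19 and at 9.05, 8.09, 7.97 and 7.89 in CD90-positive samples 14, 16, 18 and 20. Samples 13 and 14 were the highest of all 8, and the other 3 CD90-positive samples lay below every CD90-negative one. The difference of -0.56 was not called (limma adjusted p = 0.132). Without sample 14 it was -0.83 and without samples 13 and 14 it was -0.72, and both were called (limma adjusted p = 0.00277 and 0.000936), while without sample 13 alone it was -0.45 and not called (limma adjusted p = 0.249). With neighbouring title numbers as pairs, an assumption, it was lower in all 4 and called (limma adjusted p = 0.0196).
The cluster shared by H2-T22 and H2-T9 was also highest in samples 13 and 14, at 9.04, 8.12, 7.99 and 7.93 in CD90-negative and at 8.87, 7.41, 7.52 and 7.34 in CD90-positive samples. Its difference was -0.48 and not called (limma adjusted p = 0.376). It was -0.59 and called without samples 13 and 14 (limma adjusted p = 0.00166), -0.85 and called without sample 14 alone (limma adjusted p = 0.0431), and -0.23 and not called without sample 13 alone (limma adjusted p = 0.669). The genes are close relatives, so these values are no independent pair.

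Samples 13 and 14 lay apart in further genes of the family, in both populations. H2-DMb1, a chain of the class II peptide editor H2-DM, was at 5.44 and 5.59 there and between 4.47 and 4.80 in the other 6 samples, with every value but these 2 under the filter. The cluster for H2-T23 with H2-T-ps was at 7.83 and 7.92 there and between 7.23 and 7.56 in the others. Both were singled out after its values were seen.

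**Figure D2:**
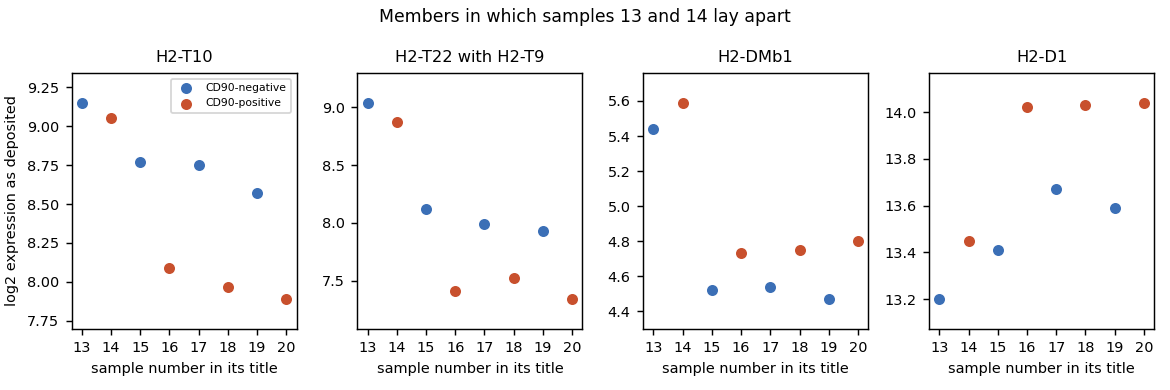
Log2 expression as deposited of H2-T10, the H2-T22 with H2-T9 cluster, H2-DMb1 and H2-D1 against the sample number in its title, CD90-negative in blue and CD90-positive in red, each panel on its own scale. Samples 13 and 14 are the highest for H2-T10, H2-T22 with H2-T9 and H2-DMb1, and sample 14 is the lowest CD90-positive sample for H2-D1.

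H2-T24, H2-Bl and the pseudogene H2-K2 complete the class I heavy chain genes tested. None was called: H2-K2 was at 8.40 ± 0.19 and 8.49 ± 0.098, H2-Bl at 5.97 ± 0.092 and 6.16 ± 0.15, and H2-T24 at 5.62 ± 0.10 and 5.66 ± 0.11 (limma adjusted p = 0.601, 0.138 and 0.743). Both means of H2-Bl and of H2-T24 lay below the negative control rows. H2-Bl was called without sample 14 (0.26, limma adjusted p = 0.0354). It was not called without samples 13 and 14 together (0.23, limma adjusted p = 0.0535) or without sample 13 alone (0.16, limma adjusted p = 0.248). The 13 heavy chain genes and pseudogenes under the filter ran from 3.75 to 5.53 over all samples.

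Of the 8 accessory members of class I, which supply and load its peptides or pair with the heavy chain, 4 fell, 1 (B2m) rose and 3 were not called. Those called are 62.5% of the 8, beside 29.7% of all genes tested. Tapbp codes for tapasin, which bridges the heavy chain to the TAP transporter. It was at 10.84, 10.84, 10.82 and 10.85 in CD90-negative and at 10.59, 10.60, 10.54 and 10.58 in CD90-positive samples. The populations were separate, at 10.84 ± 0.013 and 10.58 ± 0.027, and a fall of 0.26 was called (95% interval -0.38 to -0.14, limma adjusted p = 0.0051). After another quantile normalization of the deposited values it fell by 0.22 and was not called (limma adjusted p = 0.05).

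Tapbpl, whose product edits peptides on class I outside the loading complex, was at 8.95, 8.82, 9.0 and 9.04 in CD90-negative and at 8.72, 8.63, 8.75 and 8.80 in CD90-positive samples. The populations were just apart. It fell by 0.23 (limma adjusted p = 0.0407), a call that was lost when any 1 sample other than 15 was left out (limma adjusted p up to 0.113). Leaving out samples 13 and 14 together also lost the call (limma adjusted p = 0.0889).

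Tap1 and Tap2 code for the subunits of the peptide transporter. Tap2 was at 7.79, 7.70, 7.75 and 7.86 in CD90-negative and at 7.21, 7.40, 7.51 and 7.57 in CD90-positive samples, without overlap, and fell by 0.35 (95% interval -0.55 to -0.15, limma adjusted p = 0.0156). Tap1 was at 9.08, 8.96, 9.11 and 9.06 against 8.57, 8.95, 9.0 and 8.95. Only sample 14 stood clearly lower, and the difference of -0.19 was not called (95% interval -0.42 to 0.04, limma adjusted p = 0.199). It was -0.09 without sample 14 and -0.08 without samples 13 and 14 (limma adjusted p = 0.344 and 0.416). That 1 transporter gene passed and the other did not is no test of a difference between them.

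Psmb8, Psmb9 and Psmb10 code for the catalytic subunits that turn a proteasome into an immunoproteasome. Psmb10 was at 9.42, 9.40, 9.54 and 9.42 in CD90-negative and at 8.84, 9.19, 9.15 and 9.18 in CD90-positive samples, without overlap. It fell by 0.36 (95% interval -0.56 to -0.15, limma adjusted p = 0.017), and by 0.27 without sample 14 (limma adjusted p = 0.0148). Without samples 13 and 14 together it fell by 0.28 (limma adjusted p = 0.0182). Psmb8 was at 7.32 ± 0.065 and 7.23 ± 0.052, and Psmb9 at 7.05 ± 0.071 and 7.06 ± 0.18. Neither was called, with 95% intervals of -0.23 to 0.05 and -0.21 to 0.22 (limma adjusted p = 0.308 and 0.985).

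**Figure D3:**
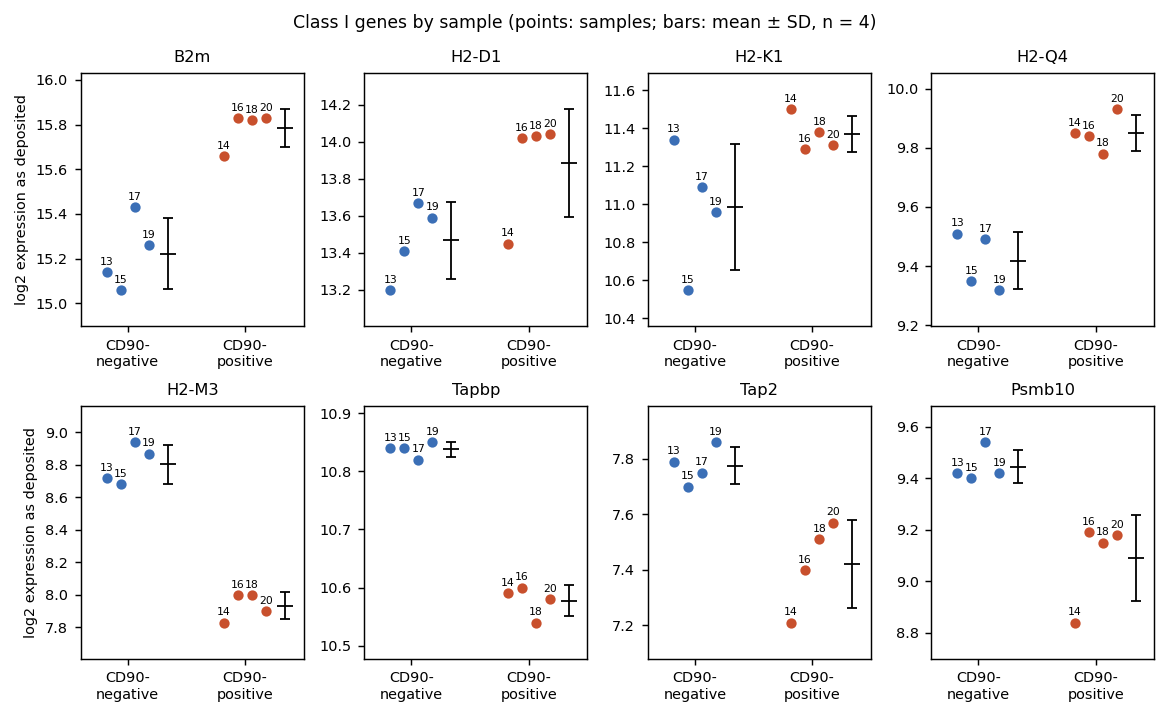
Log2 expression as deposited of 8 class I genes in each sample, with the title number beside each point and the mean ± SD (n = 4) in black, each panel on its own scale. B2m and H2-Q4 are higher in every CD90-positive sample and H2-M3, Tapbp, Tap2 and Psmb10 lower, while sample 14 overlaps the CD90-negative values for H2-D1 and sample 13 the CD90-positive values for H2-K1.

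H2-Ke6, the member that is no antigen presentation gene, was at 9.05, 9.09, 9.20 and 9.0 in CD90-negative and at 8.73, 8.79, 8.76 and 8.95 in CD90-positive samples. The populations were just apart and it fell by 0.28 (limma adjusted p = 0.0201). The call was lost without sample 17 or 18 (limma adjusted p = 0.0565 and 0.0573) and without samples 13 and 14 together (limma adjusted p = 0.0525), and after another quantile normalization (-0.21, limma adjusted p = 0.0698). Pfdn6, a prefoldin subunit gene whose cluster also carries the old name H2-Ke2, was at 9.93 ± 0.10 and 9.91 ± 0.11 and was not called (limma adjusted p = 0.856).

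Other genes of this route were read from a list of 14, of which 11 were named alone and tested. Of these, 0 rose and 3 fell (limma; at an unadjusted p under 0.05 the counts were 1 and 5), with a median difference of -0.03. These 3 are 27.3% of the genes tested in the list, close to the 29.7% of all genes. This list, like the others below, was chosen with earlier results of these data known, so its share is no test. Erap1, the aminopeptidase that trims peptides in the endoplasmic reticulum, fell from 10.84 ± 0.12 to 9.93 ± 0.052 (difference -0.91, limma adjusted p = 3.84e-05). Psme1, a subunit of the interferon-inducible proteasome activator, and Psmb7, a constitutive catalytic subunit, fell by 0.24 and 0.22 (limma adjusted p = 0.0238 and 0.0273). The chaperone genes Calr, Canx and Pdia3 differed by 0.27, 0.03 and 0.09 and were not called (limma adjusted p = 0.178, 0.794 and 0.449). The count of 3 is not stable: it was 5 after centring each array on its median and 1 after another quantile normalization or without sample 16, 17 or 20.

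The transactivator gene Nlrc5 was measured only on the cluster that also lists Mir7072. It was at 5.31, 5.40, 5.45 and 5.40 in CD90-negative and at 5.66, 5.89, 6.02 and 5.92 in CD90-positive samples. The populations were separate, and the cluster was called higher by 0.48 (95% interval 0.29 to 0.67, limma adjusted p = 0.00257), in a range below the negative control rows.

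Class II genes gave low values in both populations, and none was called. Of the 13 class II members, 4 were tested, with 0 higher and 0 lower (limma; 1 higher and 0 lower at an unadjusted p under 0.05). Of all genes tested 29.7% were called, and 4 members are too few to set against that share. The other 9 members lay under the filter with values between 3.69 and 5.59. Both classical chains of I-A, the class II molecule of this strain, were among the 4 tested. H2-Ab1, the beta chain gene, was at 7.74, 7.12, 7.04 and 6.69 in CD90-negative and at 7.34, 7.16, 7.09 and 7.87 in CD90-positive samples. It was highest in sample 20 and next in sample 13, the populations overlapped, and the difference of 0.22 had a 95% interval of -0.33 to 0.76 (limma adjusted p = 0.542). It was 0.05 without sample 20, 0.07 without sample 19, 0.41 without sample 13 and 0.55 with array weights, none of them called (limma adjusted p = 0.899, 0.872, 0.156 and 0.0821). H2-Aa, the alpha chain gene, was at 5.27 ± 0.15 and 5.43 ± 0.10, below the negative control rows (difference 0.15, limma adjusted p = 0.239).

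H2-Eb1 codes for the beta chain of I-E, a molecule that C57BL/6 mice do not assemble because their Ea gene is defective. It was at 6.30, 6.62, 6.31 and 6.27 in CD90-negative and at 6.70, 6.90, 6.59 and 7.47 in CD90-positive samples. Sample 20 was again the highest and the ranges met at samples 15 and 18. The CD90-negative mean lay below the negative control rows. The difference of 0.54 was not called (95% interval 0.12 to 0.96, limma adjusted p = 0.056). Weighting the arrays gave 0.72 and a call (limma adjusted p = 0.0174). It was also called without sample 18 (0.65, limma adjusted p = 0.0406), and was 0.36 without sample 20 (limma adjusted p = 0.0628). The Ea gene itself, listed on the array as the pseudogene H2-Ea-ps, was between 3.83 and 4.21, and H2-Eb2 between 4.58 and 4.83.

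The accessory genes of class II lay near or under the filter. H2-DMa, the partner chain of H2-DMb1, was at 6.00 ± 0.057 and 6.14 ± 0.076, both below the negative control rows (difference 0.14, limma adjusted p = 0.134). H2-DMb2 ran from 5.07 to 5.59, H2-Oa and H2-Ob, whose products restrain H2-DM, from 3.69 to 3.92 and from 4.59 to 4.92, and the pseudogenes H2-Pa and H2-Pb from 3.86 to 4.12 and from 5.15 to 5.41. Ciita, the class II transactivator, lay between 4.56 and 4.65 in all 8 samples.

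Cd74, the invariant chain that escorts class II to the endosome, was measured only together with Mir5107. That cluster was at 5.90, 6.76, 6.29 and 6.36 in CD90-negative and at 6.70, 7.45, 6.96 and 8.20 in CD90-positive samples. It was highest in sample 20, and sample 14 lay just under sample 15. The difference of 1.0 was called (95% interval 0.28 to 1.72, limma adjusted p = 0.043), but the call was lost without any 1 of samples 13, 16, 17, 18, 19 or 20 (0.71 to 1.12, limma adjusted p up to 0.094). Without samples 13 and 14 together it was 1.07 and called (limma adjusted p = 0.0341). The cluster's CD90-negative mean lay below the negative control rows.

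Markers of other cells were read beside the class II values. Of 13 macrophage genes, 6 passed the filter, of which 3 were called higher and 0 lower, 50% of those tested beside 29.7% of all genes. The list's mean ran from 5.32 to 5.56 in CD90-negative and from 5.59 to 5.84 in CD90-positive samples. Cd68, a lysosomal glycoprotein of macrophages that other cells also make, rose from 8.75 ± 0.12 to 9.80 ± 0.49, and C1qa and Cx3cr1, with both means below the negative control rows, by 0.35 and 0.58 (limma adjusted p = 0.00664, 0.0329 and 0.00719). Lyz2, the lysozyme gene of myeloid cells, was highest in sample 20, at 7.91, and was not called (difference 1.05, limma adjusted p = 0.0668). Its CD90-negative mean lay below the negative control rows. Aif1, another gene of the list, went the other way, with both means below the negative control rows (difference -0.21, not called, limma adjusted p = 0.324). The defining genes Csf1r, Adgre1, Fcgr1, Mrc1 and Tyrobp lay under the filter. Of 10 general leukocyte genes 8 lay under it too, and the list's mean ran from 4.77 to 4.91 and from 4.87 to 5.14, highest in sample 20.

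Of 9 dendritic cell genes, 4 were tested and 1 was called, 25% beside 29.7% of all genes. This was Batf3, which fell by 0.23 with both means below the negative control rows (limma adjusted p = 0.0336). Flt3, Itgax, Xcr1, Clec9a and Cd209a lay under the filter. The dendritic list's mean ran from 4.98 to 5.11 in CD90-negative and from 5.02 to 5.08 in CD90-positive samples. Of 6 B cell genes measured, Cd79a alone was tested and rose by 0.26 with both means below the negative control rows (limma adjusted p = 0.0321), and the list's mean ran from 4.52 to 4.63 and from 4.69 to 4.73. Cd3e, of the 6 T cell and innate lymphoid genes, rose by 0.74 with both means below the negative control rows (limma adjusted p = 0.0279), and that list, which holds Thy1, ran from 4.80 to 5.04 and from 5.15 to 5.53. The mean of 9 colon epithelium genes was highest in samples 13 and 20, at 9.34 and 9.38, and between 7.51 and 8.35 in the others, and these are also the samples with the highest H2-Ab1. The orders differ between lists: sample 13, next to the highest for H2-Ab1, had the lowest macrophage mean (5.32), and sample 16 had the highest (5.84) with H2-Ab1 at 7.16. The part of such cells in the class II and Cd74 values was not tested.

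**Figure D4:**
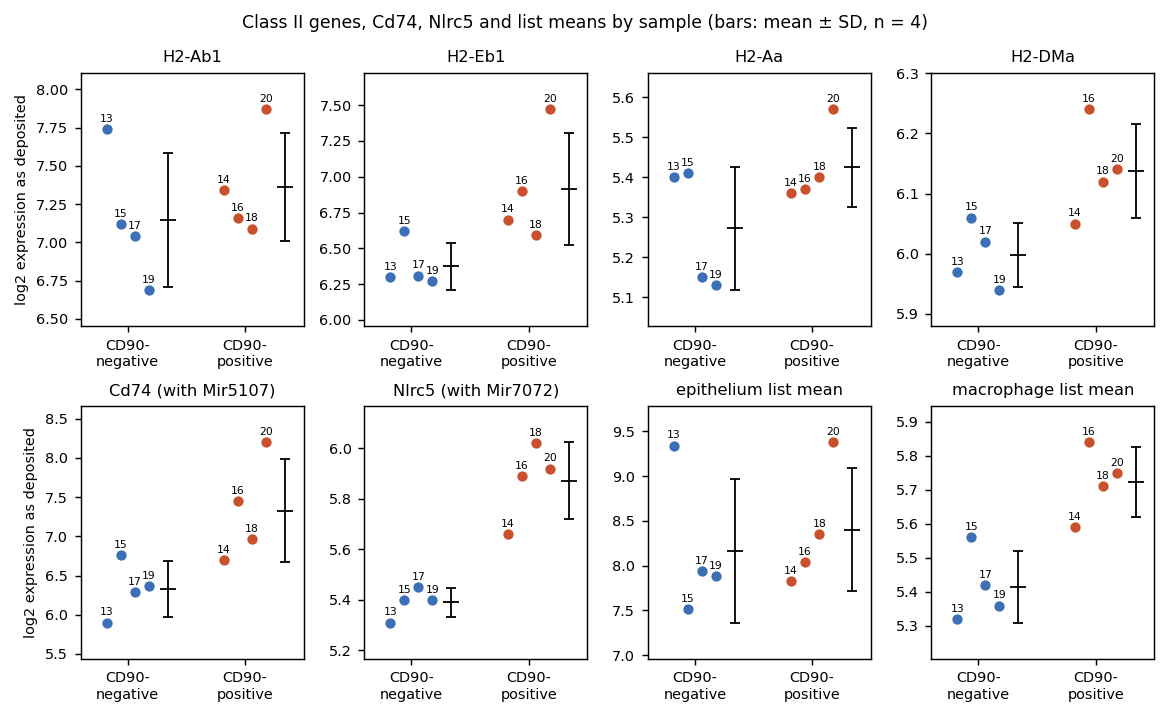
Log2 expression as deposited of 4 class II genes, of the clusters of Cd74 and Nlrc5, which each also list a microRNA, and the mean over 9 epithelium and 13 macrophage genes, in each sample with its title number, with mean ± SD (n = 4) in black and each panel on its own scale. Sample 20 is the highest for H2-Ab1, H2-Eb1, H2-Aa and Cd74, and H2-Ab1 and the epithelium mean are both highest in samples 13 and 20.

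The endosomal genes that prepare class II peptides were better measured, in a list of 13 of which 11 were tested. Of these, 5 rose and 2 fell, 63.6% beside 29.7% of all genes tested, with a median difference of 0.24. As this list too was chosen with earlier results of these data known, its share is no test. These enzymes serve lysosomes in every cell. Ctsl, a cysteine protease, rose from 12.44 ± 0.24 to 13.57 ± 0.18, and Lgmn, the asparaginyl endopeptidase, from 13.36 ± 0.084 to 14.15 ± 0.23 (limma adjusted p = 0.000332 and 0.000896). Lamp1, a lysosomal membrane protein, and Marchf8, a ligase that marks class II for removal, rose by 0.69 and 0.35, and Ctsz by 0.24 (limma adjusted p = 0.000248, 0.0186 and 0.0192). The cathepsin gene Ctsh and the cathepsin inhibitor gene Cst3 fell, with differences of -1.41 and -0.91 (limma adjusted p = 0.00012 and 2.01e-05). Ctss, the protease that clears the invariant chain in antigen-presenting cells, was at 6.33 ± 0.33 and 6.50 ± 0.47, both below the negative control rows, and was not called. The count of 5 was 3 after another quantile normalization or without sample 20.

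Of 7 factors that bind class II promoters, 0 rose and 2 fell (limma; 0 and 3 at an unadjusted p under 0.05), 28.6% beside 29.7% of all genes tested. Rfx5 and Rfxap, subunits of the RFX complex that binds the X box, fell by 0.38 and 0.35 (limma adjusted p = 0.00938 and 0.0085), while the third subunit, Rfxank, was at 8.89 ± 0.090 and 8.87 ± 0.073 (limma adjusted p = 0.831). The NF-Y genes Nfya, Nfyb and Nfyc, whose products bind the Y box, differed by -0.09, -0.10 and -0.22 and were not called.

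Interferons and NF-kB are known inducers of class I genes, and interferon-gamma is known to induce class II genes. Of 16 genes of these routes, 14 were tested, and 7 rose and 1 fell, with a median difference of 0.32. Those called are 57.1% of the genes tested in the list, beside 29.7% of all genes. As the list was chosen with earlier results of these data known, its share is no test. Ifngr1, the ligand-binding chain of the interferon-gamma receptor, was at 12.62, 12.17, 12.56 and 12.42 in CD90-negative and at 12.98, 13.09, 13.28 and 13.18 in CD90-positive samples. The populations were separate and it rose by 0.69 (limma adjusted p = 0.00177). Ifnar2, a chain of the type I interferon receptor, rose by 0.56, the kinase gene Jak2 by 0.36 and Irf9, a transcription factor of the interferon response, by 0.40 (limma adjusted p = 0.000497, 0.0023 and 0.00282). Jak1, Rela and Socs1 also rose, by 0.27, 0.36 and 0.48, with both Socs1 means below the negative control rows. The kinase gene Tyk2 fell by 0.23 (limma adjusted p = 0.0319), which was not called without any 1 sample other than 13. Irf1, a direct activator of class I genes, was at 10.06 ± 0.24 and 9.97 ± 0.13 (limma adjusted p = 0.669), and Irf8 at 9.68 ± 0.17 and 9.67 ± 0.23 (limma adjusted p = 0.969).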

How the data were processed

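Per the labels' protocols, RNA was extracted with a bead-based kit and 2 ng of it was amplified and labelled. The authors deposited log2 values for 72688 rows, 6732 of them controls. Per the submitters' processing notes these came from Affymetrix Expression Console 1.1 and RMA, whose settings and genome build are not given in the sources used here. Values reach 19.90, above a 16-bit scan, and how that scale arose is not given. Differences are therefore not read here as ratios of RNA amounts.

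Symbols were updated through RefSeq (GRCm38.p6). Clusters naming 1 gene were kept if 4 or more samples reached 5.36, the 50th percentile over all clusters and samples, the brightest cluster standing for its gene. For 17222 genes, limma 3.58.1 compared the populations in R 4.3.3 (lmFit, eBayes, two-sided, Benjamini-Hochberg, threshold 0.05), with no block, since no label ties samples to mice. The p-values therefore measure the spread between these samples, and the number of arrays limits precision. The fit was tested on simulated independent genes with the measured means and spreads, of which 50 were changed by each size. It called 6% of changes of 0.25, 54% of 0.5, 88% of 1 and 96% of 2. Fewer genes were changed there than were called in the data, so these rates need not hold here. A member that was not called may still differ. Members and lists were chosen with earlier results of these data known. The rule for named genes took the tested members, the classical class II genes, Ciita and Nlrc5, the 4 called genes of each pathway list with the smallest p in a direction, the called genes of the leukocyte lists with the 3 brightest of each cell list, of which not all are named, and the genes of the sort. Genes outside this were chosen after their values were seen: Calr, Canx, Pdia3, Ctss, Irf1, Irf8, Rfxank, the NF-Y genes, Ctsz, Jak1, Rela, Socs1, Cd86, Xist, Uty, Cwc22 and the filtered markers. Python 3.11.15, pandas 2.3.3 and matplotlib 3.10.9 made tables and plots.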

Additional observations from a re-analysis of the deposited data

Results flagged for a closer look

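The groups checked were each population in the 24 members tested, the 11 clusters with shared names, and H2-DMb1, H2-DMb2, Ciita, H2-Ea and H2-Eb2. H2-DMb1 was singled out after its values were seen. Chance gives about 1 in 20 in independent groups, but these share the same 8 arrays and hold close relatives, so that rate is no yardstick here. In these 80 groups of 4 samples, 13 held a sample set apart from the other 3 by Dixon's ratio. Of these, 8 were sample 14 of the CD90-positive population, in B2m at 15.66 (the others between 15.82 and 15.83), Psmb10 at 8.84 (9.15 to 9.19), Tap1 at 8.57 (8.95 to 9.0), H2-D1 at 13.45 (14.02 to 14.04), H2-T10 at 9.05 (7.89 to 8.09) and the cluster of H2-T23 with H2-T-ps at 7.92 (7.23 to 7.32). The remaining 2 of the 8 belong to clusters in which sample 13 was set apart among CD90-negative samples too, given first: the H2-T22 with H2-T9 cluster at 9.04 (7.93 to 8.12) and 8.87 (7.34 to 7.52), and H2-DMb1 at 5.44 (4.47 to 4.54) and 5.59 (4.73 to 4.80). Sample 17 was the highest CD90-negative sample for Psmb10, at 9.54 (9.40 to 9.42), and for Pfdn6, also listed under the old name H2-Ke2, at 10.09 (9.86 to 9.90). Sample 15 was the highest CD90-negative sample for H2-Eb1, at 6.62 (6.27 to 6.31).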

How the results depend on the processing

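B2m, H2-Q4, H2-M3, Psmb10 and Tap2 kept direction and call under all 20 alternatives run, B2m between 0.50 and 0.63, H2-Q4 between 0.39 and 0.48, H2-M3 between -0.91 and -0.81, Psmb10 between -0.40 and -0.27 and Tap2 between -0.40 and -0.28. Tapbp kept its call under 19, H2-Ke6 under 16 and Tapbpl under 10. Class I members called higher numbered 2, but 6 with array weights, 5 without samples 13 and 14, 4 with neighbouring title numbers as a block, an assumption that no label states, and 2 to 4 leaving out 1 sample. Those called lower numbered 5, but 3 after another quantile normalization. Class II members called higher numbered 0, but 3 with array weights and 0 to 1 leaving out 1 sample. With that block H2-D1, H2-K1 and H2-T10 were called (limma adjusted p = 0.00964, 0.0369 and 0.0196), and no other member gained or lost a call. As a hint from the data and not the design, Cwc22 was near in neighbouring numbers, at 8.20 and 7.86, 9.28 and 9.43, 14.70 and 14.34, and 13.89 and 13.47.

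In the pathway lists, class I supply genes called higher numbered 0, but 1 with array weights, 2 with that block, 2 without samples 13 and 14 and 0 to 1 leaving out 1 sample; those called lower numbered 3, but 1 after quantile normalization, 5 after median centring and 1 to 4 leaving out 1 sample. Class II processing genes called higher numbered 5, but 3 after quantile normalization and 3 to 6 leaving out 1 sample. Interferon route genes called lower numbered 1, but 0 after quantile normalization, 2 after median centring, with array weights or with the mean of clusters, and 0 to 1 leaving out 1 sample. Class I-like genes called higher numbered 2, but 1 with a 60th percentile filter and 4 with array weights. The causes were not tested.

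Differences near 0 changed sign without a call: Psmb9 after median centring (-0.0398) and leaving out 1 sample (-0.0693 to 0.0701), H2-T24 after quantile normalization (-0.0118), median centring (-0.0022), without samples 13 and 14 (-0.0473) and leaving out 1 sample (-0.0101 to 0.0837), H2-K2 leaving out 1 sample (-0.0119 to 0.134), and, in settings added after seeing the data, the clusters of Pfdn6 without sample 16 or 17 (0.0224 and 0.0275) and H2-T23 without sample 13 (0.0150). H2-Aa, H2-DMa, H2-Q1 and H2-T24 fell under the filter in some settings. Dim clusters below the negative control rows limit 5 of the 24 members tested in both populations.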

Other observations

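Genes for the second signal that T cells read beside MHC moved both ways. Of 10 costimulatory and checkpoint ligands tested, 3 rose and 3 fell in CD90-positive fibroblasts, beside 14% and 15.7% of all genes tested. Their list was chosen with earlier results of these data known. Icam1, an adhesion ligand of T cells, rose from 11.36 ± 0.36 to 13.11 ± 0.14, Icosl, the ligand of the costimulator ICOS, from 9.81 ± 0.34 to 11.01 ± 0.11, and Pvr, a ligand of TIGIT, from 7.79 ± 0.51 to 8.90 ± 0.25 (limma adjusted p = 9.6e-05, 0.00054 and 0.00907). Tnfsf4, which codes for OX40 ligand, fell from 7.03 ± 0.23 to 5.27 ± 0.17, Cd274, which codes for PD-L1, from 7.47 ± 0.20 to 6.70 ± 0.14, and Lgals9 by 0.40 (limma adjusted p = 2.01e-05, 0.000991 and 0.0177). The CD90-positive mean of Tnfsf4 lay below the negative control rows. Cd80 and Cd86, the ligands of CD28 on antigen-presenting cells, lay under the filter, with Cd86 highest in sample 20, at 5.68, and elsewhere between 4.61 and 4.98.

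Of 7 tested class I-like genes outside the H2 names, 2 rose and 3 fell, 71.4% beside 29.7% of all genes tested. Their list was also chosen with earlier results of these data known, so its share is no test. Fcgrt, the neonatal Fc receptor gene, rose by 0.59 and Cd1d1, which presents lipids, by 0.35 with both means below the negative control rows (limma adjusted p = 0.00269 and 0.00622). Mr1, which presents vitamin B metabolites to MAIT cells, fell from 11.06 ± 0.16 to 10.10 ± 0.35, Ulbp1, a ligand of NKG2D, by 0.85, and Procr, the endothelial protein C receptor gene, from 11.91 ± 0.33 to 7.52 ± 0.17 (limma adjusted p = 0.00279, 0.00809 and 5.4e-07).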
